A study of Mus musculus with 6 samples.

Results

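The genes described here are 10 genes of mitochondrial protein folding and quality control, picked by name from the 24984 genes listed in the count files. They are the chaperones Hspd1, Hspe1 and Trap1, the matrix proteases Lonp1 and Clpp with its unfoldase Clpx, the inner membrane proteases Yme1l1, Afg3l2 and Oma1, and the intermembrane space protease Htra2. Their transcripts were measured by bulk RNA sequencing of mouse inguinal fat, a white depot under the skin of the groin. The study had 3 libraries from Mpst knockout mice (Mpst KO HFD) and 3 from wild-type mice (WT HFD), and both genotypes were on a high-fat diet, so no chow-fed reference is included. Mpst encodes a sulfurtransferase of mitochondria and cytosol. The labels used here name neither the knockout allele and the cells it affects nor the strain, sex and age of the mice. They also do not say that replicates are separate animals, so the p-values rest on a spread between libraries that may be technical.

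Most mitochondrial proteins are made in the cytosol and enter the matrix unfolded. There the chaperonin formed by HSPD1, with its lid HSPE1, folds part of them, while ATP-driven proteases such as LONP1 and the CLPX-CLPP complex degrade proteins that are damaged or unassembled. YME1L1 and AFG3L2 do this work at the inner membrane, and OMA1 is a stress-activated peptidase that, like YME1L1, cuts the fusion protein OPA1. When unfolded proteins build up, mammalian cells can raise transcription of several of these genes, a programme called the mitochondrial unfolded protein response.

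Hspd1 and Hspe1 sit head to head and overlap at their starts, and the window of Hspe1 is shown. That window lies wholly inside Hspd1, and the outermost Hspd1 start, at 55088243, is outside it. On GRCm38, Hspd1 occupies chromosome 1 from 55077835 to 55088243 on the minus strand and Hspe1 from 55088132 to 55091307 on the plus strand, so that each annotated start lies inside the other gene, 111 bases from its start. Clpp and Yme1l1 are shown because they had the largest difference in each direction. Each window runs from 250 bases before to 50 bases after an annotated start, 5′ to 3′ on the gene's strand, taken from RefSeq on GRCm38.p6, which held windows for 8 of the 10 members. Capitals mark heat shock elements, searched as TTCNNGAA or GAANNTTC, and ETS sites, searched as CCGGAAG, on both strands.
Hspe1, chr1:55087898-55088197, plus strand: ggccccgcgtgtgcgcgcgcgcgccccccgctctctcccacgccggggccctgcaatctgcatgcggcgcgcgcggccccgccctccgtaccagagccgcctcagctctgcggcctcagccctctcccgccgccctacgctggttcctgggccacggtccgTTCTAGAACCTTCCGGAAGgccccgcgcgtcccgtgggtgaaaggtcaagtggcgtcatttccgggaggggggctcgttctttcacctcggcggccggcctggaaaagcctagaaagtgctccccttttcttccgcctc
Clpp, chr17:56990014-56990313, plus strand: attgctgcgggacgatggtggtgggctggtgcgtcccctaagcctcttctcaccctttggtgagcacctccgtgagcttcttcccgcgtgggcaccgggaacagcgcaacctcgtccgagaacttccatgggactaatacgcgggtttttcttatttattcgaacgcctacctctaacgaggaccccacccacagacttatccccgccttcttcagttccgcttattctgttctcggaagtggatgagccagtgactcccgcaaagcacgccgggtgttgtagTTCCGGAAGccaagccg
Yme1l1, chr2:23156255-23156554, plus strand: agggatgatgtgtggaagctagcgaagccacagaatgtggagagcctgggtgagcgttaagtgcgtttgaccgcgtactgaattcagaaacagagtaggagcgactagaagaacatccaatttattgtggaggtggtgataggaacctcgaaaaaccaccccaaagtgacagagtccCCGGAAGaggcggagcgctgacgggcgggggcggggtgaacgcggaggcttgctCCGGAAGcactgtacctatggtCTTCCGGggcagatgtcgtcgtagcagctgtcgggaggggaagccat

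In the Hspe1 window the heat shock elements formed one run, from 89 to 72 bases before the start, that joined TTCNNGAA, GAANNTTC and TTCNNGAA again and overlapped ETS matches. Hspd1 has 2 windows. The window at 55087883 to 55088182, of a start further inside the gene, shares 285 bases with the Hspe1 window. It holds the same run, from 144 to 127 bases before that inner start. The window of the outermost Hspd1 start, at 55088194 to 55088493, shares 4 bases and holds no heat shock element. Among 32851 RefSeq windows of 300 bases, 8.52% held TTCNNGAA and 7.86% held GAANNTTC. The Clpp window held 1 TTCNNGAA match, from 34 to 41 bases after the start and overlapping an ETS match. The Yme1l1 window held 3 ETS matches and no heat shock element, and 8.86% of all windows held an ETS match. TGATGNAA, the core of the element bound by ATF4 and CHOP, was in none of the 9 member windows and in 3.97% of all windows. The core site of NRF1, a regulator of nuclear genes for mitochondria (both strands), was in the Oma1 window and in 4.6% of all windows. It was also in the window of the outermost Hspd1 start, but not in the Hspd1 window with the heat shock run. These matches describe letters only.

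Among the 10 members, 1 fell in the knockout libraries, the protease subunit Clpp, and none rose at an adjusted p under 0.05. All 10 passed the filter on low counts. Levels are given as CPM, read counts scaled to a common library size. Adjusted p-values are from edgeR's quasi-likelihood test with Benjamini-Hochberg adjustment over all 14065 tested genes. Of those, 7.41% were called, 4.76% higher and 2.65% lower, so 1 of 10 is near the share over all genes. The median log2 fold change of the members was −0.06, with 5 above and 5 below 0, against 0.01 over all genes tested. The libraries did not overlap between groups in 4 members, Clpp, Yme1l1, Trap1 and Lonp1, against 33.3% of all tested genes. At an unadjusted p under 0.05, 1 member was higher (Yme1l1) and 2 were lower (Clpp and Trap1), against 14.9% and 12.7% of all genes.

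**Figure D1:**
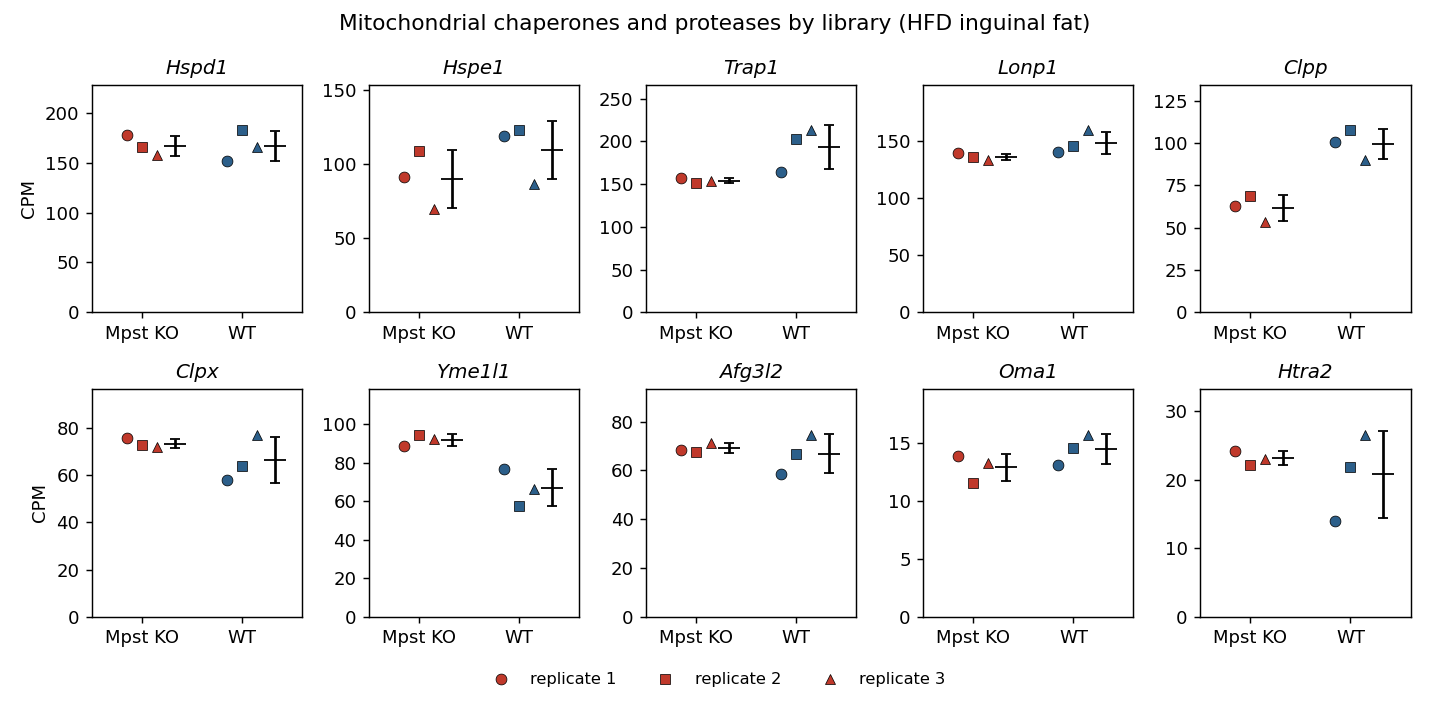
Normalised counts (CPM) of each member in the 3 Mpst KO HFD libraries (red) and the 3 WT HFD libraries (blue), with marker shape for the replicate and a black bar for mean and SD. Clpp sits at 53.3 to 68.8 CPM in knockout and 89.8 to 107 CPM in wild type, and Yme1l1 at 88.5 to 94.6 CPM in knockout and 57.7 to 76.9 CPM in wild type.

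Sequencing depth was 8054560 to 22458630 reads counted in genes in the knockout libraries and 17394489 to 21576075 in wild type, the smallest being knockout replicate 1. Mpst itself had 3, 10 and 9 reads in the knockout libraries and 1358, 1394 and 1624 in wild type, so every library matched its label. Markers of other cells moved with genotype. All 12 macrophage markers had a log2 fold change above 0 and 8 of them rose (median log2 fold change 1.28), with a summed level of 1779 to 1903 CPM in knockout and 506 to 1031 CPM in wild type. Of 10 adipocyte markers 2 fell (median −0.37), with summed levels of 37021 to 45750 CPM in knockout and 48850 to 60013 CPM in wild type, so the labelled tissue carried its defining transcripts. None of the 10 skeletal muscle markers was called, and their sum was 2338 CPM in knockout replicate 3 and 974 CPM in wild-type replicate 2, against 45.6 to 151.3 CPM in the other libraries. Of 6 fibroblast and progenitor markers, 4 had a log2 fold change above 0 and 2 below, and Col3a1 and Dcn rose. Their sums, 4070 to 5116 CPM in knockout and 2600.3 to 3555 CPM in wild type, were mostly Col3a1, while the progenitor marker Pi16 averaged 24.2 CPM in knockout and 103 CPM in wild type, not called (log2 fold change −2.10, edgeR adjusted p = 0.109). Of 6 brown or beige adipocyte markers, 1 fell, Cox8b, and at an unadjusted p under 0.05 2 were higher and 2 lower. Their sums, 79.1 to 121 CPM in knockout and 143 to 212 CPM in wild type, were mostly Cox8b and Cidea, while Ucp1 and Elovl3 had uncalled log2 fold changes of 1.78 and 2.13 at mean levels of 0.794 and 2.59 CPM in knockout and 0.221 and 0.626 CPM in wild type. No lymphocyte or endothelial marker was called, at 15.9 to 31.0 and 1312 to 1398 CPM in knockout and 12.3 to 14.2 and 1171 to 1427 CPM in wild type. Epithelial markers were near 0, with a sum of at most 1.36 CPM and Krt14 at 0 in every library. In bulk tissue, fewer cells of a type and less RNA per cell cannot be told apart, and the part of these shifts in the values below was not tested.

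Levels between genes were compared per kilobase of annotated exon, pooled over transcripts. In the knockout libraries the chaperones Hspd1 (63.2 ± 3.86 CPM per kilobase, SD, n = 3), Hspe1 (61.1 ± 13.4) and Trap1 (59.9 ± 1.13) stood highest. Neighbours in that order lay within their spread. Clpp followed at 50.4 ± 6.38, Lonp1 at 31.2 ± 0.638, Clpx at 21.02 ± 0.573 and Yme1l1 at 11.5 ± 0.388 CPM per kilobase. Htra2, Afg3l2 and Oma1 were lowest, at 7.85 ± 0.351, 7.001 ± 0.202 and 6.002 ± 0.557 CPM per kilobase. In wild type, by contrast, Clpp (81.2 ± 7.32 CPM per kilobase) stood at the top with Trap1 (75.2 ± 10.04) and Hspe1 (74.3 ± 13.3), whose values lay within each other's spread, above Hspd1 at 63.0 ± 5.75. The order depends on the length used, since the exons of Afg3l2 span 9874 bases while its longest transcript has 4664. With the longest transcript as length, Afg3l2 stood at 14.8 CPM per kilobase in knockout and 14.3 in wild type, above Htra2 at 9.21 in knockout and 8.27 in wild type, and Hspe1 stood highest of the members in both groups.

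Among the chaperones, the chaperonin subunit Hspd1 had 178, 166 and 157 CPM in the knockout libraries and 152, 182 and 165 CPM in wild type. The groups overlapped fully, with means of 167 ± 10.2 CPM in knockout and 166.5 ± 15.2 CPM in wild type (SD, n = 3 each). Its log2 fold change was 0.00 with an SE of 0.12 (edgeR adjusted p = 0.990), and its sign changed between settings. Of the 75-base stretches of its longest transcript, 33.7% also occur in transcripts of 4 processed pseudogenes, so part of its reads could be left out or shared in counting.

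Hspe1, the lid of the chaperonin, had 91.5, 109 and 69.7 CPM in the knockout libraries and 119, 123 and 86.9 CPM in wild type. Both groups had their lowest value in replicate 3, and knockout replicates 1 and 2 lay above wild-type replicate 3. The log2 fold change was −0.28 (SE 0.19, edgeR adjusted p = 0.374). It was −0.12 without knockout replicate 3, and −0.44 and −0.42 without knockout replicate 2 and wild-type replicate 3. Without the 2 libraries highest in muscle transcripts it was −0.04. Its exons overlap those of Hspd1 by 112 bases on the other strand, and the library kit does not mark strand.

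Trap1, the mitochondrial member of the heat shock protein 90 family, had 157, 151 and 154 CPM in the knockout libraries and 164, 203 and 213 CPM in wild type. The knockout values were tight and all lay below wild type, but wild-type replicate 1 lay nearer to them than to the other wild-type libraries. The means were 154 ± 2.90 CPM in knockout and 193.5 ± 25.8 CPM in wild type. The log2 fold change was −0.33 (SE 0.13, edgeR adjusted p = 0.145), and leaving out single libraries gave −0.43 to −0.25.

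Among the matrix proteases, Clpp, the peptidase chamber of the CLPX-CLPP protease, had 62.7, 68.8 and 53.3 CPM in the knockout libraries and 101, 107 and 89.8 CPM in wild type. Every knockout library lay below every wild-type library, and the gap between the groups exceeded the spread within each. Mean levels were 61.6 ± 7.80 CPM in knockout and 99.4 ± 8.96 CPM in wild type (SD, n = 3 each). Clpp fell 1.61-fold (log2 fold change −0.69, SE 0.13, edgeR adjusted p = 0.0264). It ranked 338 by p among the tested genes. On GRCm38 it lies on chromosome 17 from 56990305 to 56996188, 363418 bases from the start of Lonp1, and none of the 75-base stretches of its longest transcript occur in another gene's transcripts.

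The size of the Clpp difference held when libraries were left out, from −0.78 to −0.59, but the call ended without knockout replicate 1, 2 or 3 (edgeR adjusted p = 0.0938, 0.0665 and 0.0848) and without wild-type replicate 2 (adjusted p = 0.124), and was kept without wild-type replicates 1 and 3 (0.0491 and 0.00673). Without the 2 libraries highest in muscle transcripts it was −0.53 (adjusted p = 0.297), with calls over all genes at 0 higher and 1 lower. Over all genes the calls, 669 higher and 373 lower, were at most 41 higher and 5 lower without any 1 of the knockout libraries or wild-type replicate 2. When the dependence of counts on GC content and exon length was removed, it was −0.37 (adjusted p = 0.0624). Clpp is short and rich in G and C, with a transcript GC content of 57.8% against a median of 49.8% and 1223 exon bases against a median of 4355 over tested genes.

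Clpx, the unfoldase that feeds substrates into CLPP, had 75.7, 72.8 and 71.9 CPM in the knockout libraries and 58.2, 64.1 and 77.4 CPM in wild type. Wild type spanned the knockout values, with replicate 3 above and the other wild-type libraries below them. The log2 fold change was 0.14 (SE 0.13, edgeR adjusted p = 0.517). Lonp1, the ATP-dependent protease that degrades oxidised matrix proteins, had 139.5, 136 and 134 CPM in knockout and 141, 146 and 160 CPM in wild type. The highest knockout value and the lowest wild-type value were nearly equal, and the log2 fold change was −0.12 (SE 0.11, edgeR adjusted p = 0.501).

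At the inner membrane, Yme1l1, an ATP-dependent protease facing the intermembrane space, had 88.5, 94.6 and 92.5 CPM in the knockout libraries and 76.9, 57.7 and 66.1 CPM in wild type. All knockout libraries lay above all wild-type libraries. Mean levels were 91.8 ± 3.11 CPM in knockout and 66.9 ± 9.64 CPM in wild type (SD, n = 3 each), a log2 fold change of 0.46 (SE 0.13, edgeR adjusted p = 0.0656) that did not pass the threshold. It passed with DESeq2 (adjusted p = 0.0342) and with the replicate number as a block (0.0318). It also passed without wild-type replicate 1 (0.0468) and without wild-type replicate 3 (0.0496). With the GC and length trend taken out the log2 fold change was 0.13 (adjusted p = 0.511). Its transcript GC content, 38.1%, is at percentile 2.25 of tested genes, and its exon length at percentile 82.7.

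Afg3l2, a subunit of the inner membrane protease facing the matrix, had 68.6, 67.5 and 71.3 CPM in the knockout libraries and 58.7, 66.9 and 74.7 CPM in wild type. The knockout values lay inside the wild-type range, and the log2 fold change was 0.05 (SE 0.12, edgeR adjusted p = 0.824). Oma1 had 13.8, 11.5 and 13.2 CPM in knockout and 13.1, 14.5 and 15.7 CPM in wild type, overlapping at wild-type replicate 1. Its log2 fold change was −0.17 (SE 0.15, edgeR adjusted p = 0.499), and it had the fewest reads of the members, 116 to 312 in knockout and 214 to 338 in wild type.

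Htra2, a serine protease whose release into the cytosol promotes apoptosis, had 24.2, 22.1 and 23.0 CPM in the knockout libraries and 13.97, 21.8 and 26.6 CPM in wild type. It was the most variable member in wild type, with a coefficient of variation of 30.6% against 4.47% in knockout. The log2 fold change was 0.15 (SE 0.21, edgeR adjusted p = 0.692) and became −0.06 without wild-type replicate 1 and 0.37 without wild-type replicate 3. Of the 75-base stretches of its longest transcript, 40.5% also occur in transcripts of its neighbours Aup1 and Loxl3 on the opposite strand, so its count is uncertain. Aup1 had 122 ± 3.07 CPM in knockout and 138 ± 13.0 CPM in wild type (SD, n = 3 each).

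**Figure D2:**
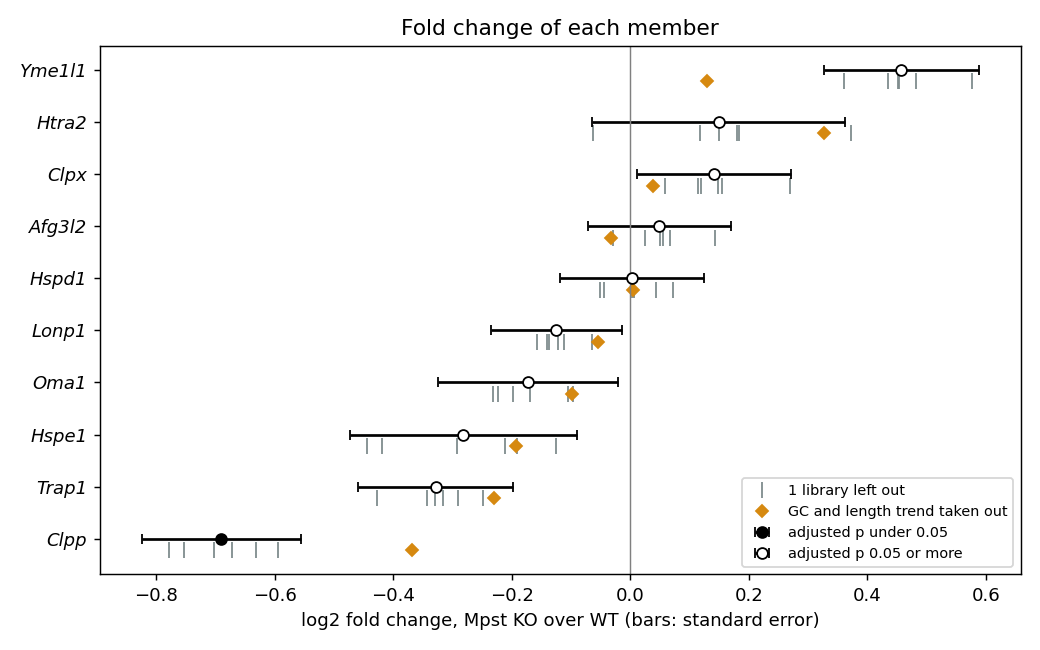
Log2 fold change of each member, Mpst KO over WT (x axis, circles with standard error, filled where the adjusted p was under 0.05), with grey ticks for the 6 fits that leave out 1 library and an orange diamond for the fit with the GC and length trend taken out. Clpp stands at −0.69 and Yme1l1 at 0.46 at the ends, and their diamonds lie nearer 0, at −0.37 and 0.13.

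The spread between libraries was smaller in knockout in most members, but this rests on 3 libraries per group and was not tested. In Trap1, Lonp1, Clpx, Yme1l1, Afg3l2 and Htra2 the coefficient of variation was 1.88% to 4.47% in knockout and 6.60% to 30.6% in wild type. Hspd1 had 6.11% in knockout and 9.12% in wild type. The coefficient was higher in knockout in Hspe1 (21.9% in knockout and 17.9% in wild type), Clpp (12.7% and 9.01%) and Oma1 (9.28% and 8.93%). Of the 10 members, 6 had their highest log2 level in wild-type replicate 3 and 4 had their lowest in wild-type replicate 1. The same counts were not made over all genes. The summed level of all members was 899, 900 and 840 CPM in the knockout libraries and 897, 987 and 975 CPM in wild type, so the groups overlapped.

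Ratios within partner pairs remove differences in scale that both genes share. The Clpx to Clpp ratio was 1.21, 1.06 and 1.35 in the knockout libraries and 0.577, 0.597 and 0.862 in wild type. Every knockout ratio exceeded every wild-type ratio, with a mean log2 difference of 0.85 (two-sided exact permutation p = 0.1, adjusted 0.15 over 3 ratios). That p is the smallest that 3 against 3 allows. The ratios are not corrected for exon length, so a value of 1 does not mark equal levels. Per kilobase of exon, Clpp stood above Clpx in knockout (50.4 and 21.02 CPM per kilobase) and in wild type (81.2 and 19.05). With the GC and length trend taken out, the log2 fold changes of the pair were 0.04 for Clpx and −0.37 for Clpp.

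The Yme1l1 to Oma1 ratio, between the proteases that cut OPA1, was 6.40, 8.20 and 6.98 in the knockout libraries and 5.86, 3.97 and 4.21 in wild type. The groups did not overlap, with a mean log2 difference of 0.63 (exact permutation p = 0.1, adjusted 0.15). With the GC and length trend taken out, the log2 fold changes of that pair were 0.13 for Yme1l1 and −0.10 for Oma1. The Hspd1 to Hspe1 ratio was 1.94, 1.52 and 2.25 in the knockout libraries and 1.28, 1.48 and 1.90 in wild type. Those groups overlapped, with a mean log2 difference of 0.29 (exact permutation p = 0.2, adjusted 0.2).

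**Figure D3:**
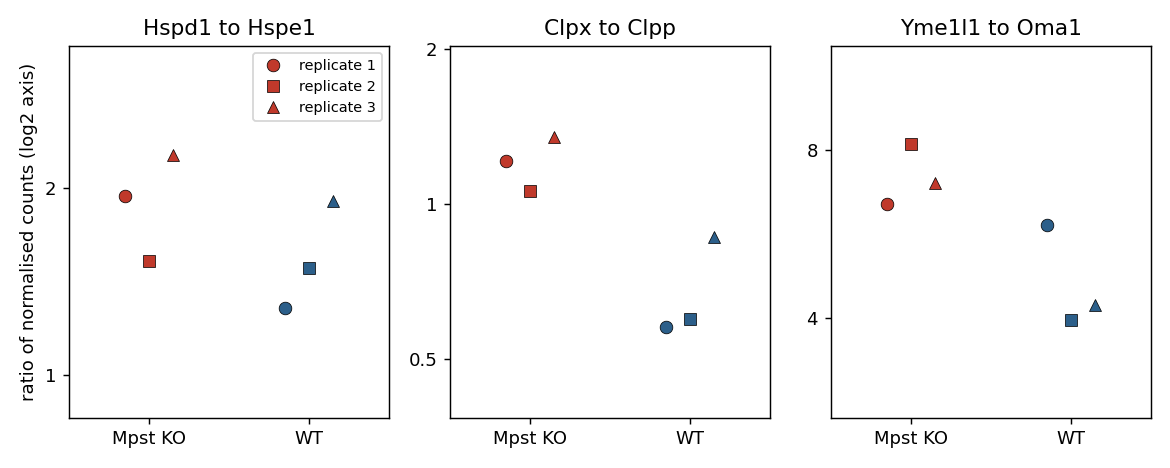
Ratio of normalised counts within 3 partner pairs, 1 point per library (log2 axis, red for Mpst KO HFD on the left, blue for WT HFD on the right, marker shape for the replicate). The Clpx to Clpp ratio spans 1.06 to 1.35 in knockout and 0.577 to 0.862 in wild type, while the Hspd1 to Hspe1 ratios of the groups overlap.

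Other genes of the same machinery came from lists of textbook members. Of 11 other mitochondrial chaperones, 2 fell and none rose, with a median log2 fold change of −0.08. Dnajc15, a J protein of the import motor, had 123, 143 and 102 CPM in the knockout libraries and 177, 186 and 182 CPM in wild type (log2 fold change −0.57, edgeR adjusted p = 0.0465). Dnlz, which keeps the matrix chaperone Hspa9 soluble, had 52.8, 54.1 and 45.3 CPM in knockout and 81.5, 81.8 and 62.2 CPM in wild type (−0.57, edgeR adjusted p = 0.0474). In both genes every knockout library lay below every wild-type library. Hspa9 itself, the matrix heat shock protein 70, stood at 382 ± 22.2 CPM in knockout and 403 ± 39.8 CPM in wild type (log2 fold change −0.08, edgeR adjusted p = 0.735), a value chosen after it was seen.

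Of 13 other mitochondrial proteases and peptidases, 3 fell and none rose, with a median of −0.26 and a range of −0.63 to 0.48. Metap1d, which removes the initiating methionine in mitochondria, had 28.3, 26.8 and 27.6 CPM in the knockout libraries and 41.9, 37.7 and 48.1 CPM in wild type (log2 fold change −0.63, edgeR adjusted p = 0.0284). Spg7, the paraplegin subunit that assembles with AFG3L2, had 91.7, 92.3 and 84.6 CPM in knockout and 119, 124 and 118 CPM in wild type (−0.43, edgeR adjusted p = 0.0456). Afg3l2, its partner among the members, differed by 0.05 in the same libraries. Immp2l, a peptidase of the inner membrane, had 14.1, 13.4 and 10.8 CPM in knockout and 17.7, 19.5 and 21.4 CPM in wild type (−0.62, edgeR adjusted p = 0.0486). Metap1d, Spg7, Immp2l and the chaperones Dnajc15 and Dnlz were not called without any 1 of the 3 knockout libraries or without wild-type replicate 1 or 2. Nor were they called without the 2 libraries highest in muscle transcripts (adjusted p = 0.268 to 0.376). With the GC and length trend taken out, Dnlz, Spg7 and Immp2l were not called (adjusted p = 0.0782, 0.0607 and 0.0590), while Dnajc15 and Metap1d were. Dnlz also lost its call with RLE size factors (0.0511), with limma-voom (0.0518) and without robust estimation (0.0515). Dnajc15 lost its call with RLE size factors (0.0509), and Spg7 without the low-count filter (0.0599). With libraries thinned to the smallest, Spg7 (0.0552) and Immp2l (0.0991) were not called.

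None of the 4 partners and scaffolds of the inner membrane proteases was called (median −0.16). Phb, a prohibitin, had the smallest p, at 123 ± 16.0 CPM in knockout and 158 ± 24.5 CPM in wild type (log2 fold change −0.36, edgeR adjusted p = 0.174). It was called without wild-type replicate 3 (−0.48, adjusted p = 0.0375) and with the replicate number as a block (adjusted p = 0.0328). Of 8 substrates of the proteases, 1 fell (median −0.01), against 2.65% of all genes called lower. Pink1, a mitophagy kinase that PARL cuts, had 322, 333 and 315 CPM in the knockout libraries and 430, 444 and 516 CPM in wild type (−0.52, edgeR adjusted p = 0.0448, and −0.33 with the GC and length trend taken out, adjusted p = 0.143). Its call also ended without knockout replicate 1, 2 or 3 (adjusted p = 0.152, 0.127 and 0.135), without wild-type replicate 1 or 2 (0.0597 and 0.147), with libraries thinned to the smallest (0.0505) and without the 2 libraries highest in muscle transcripts (0.318). Opa1, cut by YME1L1 and OMA1, stood at 68.5 ± 7.16 CPM in knockout and 63.8 ± 2.57 CPM in wild type (0.10, edgeR adjusted p = 0.604). It was named for its tie to these proteases after its value was seen.

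Regulators of the mitochondrial stress response were not called in either direction (10 tested, median −0.17, range −0.64 to 0.99). At an unadjusted p under 0.05, 2 were higher and 3 lower, against 14.9% and 12.7% of all genes. The largest rise was in Gdf15, at 4.09 ± 1.22 CPM in knockout and 2.04 ± 0.621 CPM in wild type (0.99, edgeR adjusted p = 0.0998). Atf5, a transcription factor of the mitochondrial unfolded protein response, had the smallest p, with 208, 225 and 204 CPM in the knockout libraries and 253.5, 274 and 342 CPM in wild type. The groups did not overlap, and the log2 fold change was −0.45 (edgeR adjusted p = 0.0857). Its adjusted p was 0.0261 by DESeq2 and 0.0400 by edgeR with the replicate number as a block. With the GC and length trend taken out it was −0.19 (adjusted p = 0.500). None of the 17 cytosolic and endoplasmic reticulum counterparts of the chaperones was called (median −0.13). At an unadjusted p under 0.05, 2 of them were lower and none higher, against 12.7% and 14.9% of all genes. Cct7, a subunit of the cytosolic chaperonin, had the smallest p, at 158.5 ± 12.1 CPM in knockout and 212 ± 14.6 CPM in wild type (−0.42, edgeR adjusted p = 0.0662). Cct7 was called by DESeq2 (adjusted p = 0.0161) and with the replicate number as a block (0.0208). It was also called without wild-type replicate 3 (0.0261) and with the GC and length trend taken out (0.0426).

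For scale, 20 nuclear-encoded subunits of the respiratory chain had a median log2 fold change of −0.37, against −0.06 over the 10 members. Of the subunits, 2 were called lower and none higher, against 2.65% and 4.76% of all genes. At an unadjusted p under 0.05, 10 of the subunits were lower and none higher, against 12.7% and 14.9% of all genes. The libraries did not overlap between groups in 12 of the subunits, against 33.3% of all genes. The difference between the lists was not tested. The summed level of those subunits was 7169 to 8296 CPM in knockout and 8853 to 10112 CPM in wild type.

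**Figure D4:**
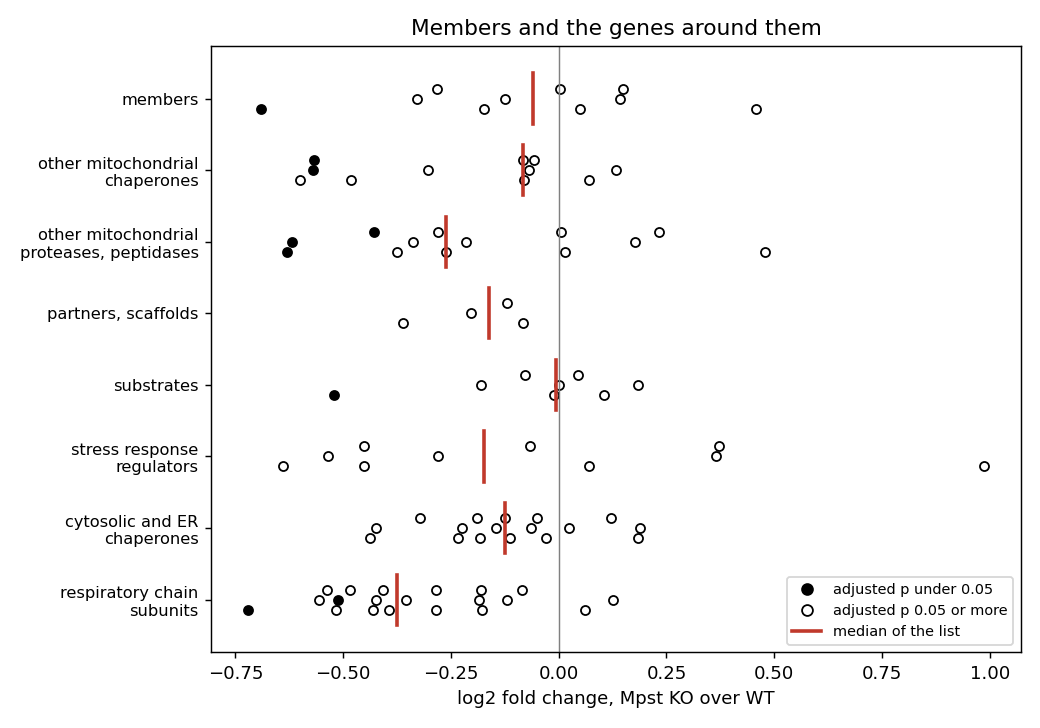
Log2 fold change (x axis, Mpst KO over WT) of each tested gene in the members and in 7 lists around them, 1 circle per gene, filled where the adjusted p was under 0.05, with a red line at each list's median. Filled circles are all below 0, and the medians run from −0.37 for the respiratory chain subunits to −0.01 for the protease substrates.

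The genes whose profiles over the 6 libraries lay nearest to Hspd1 were Cops8, Tmem50b and Mcam, at Euclidean distances of 0.0548, 0.0566 and 0.0576 on centred log2 CPM among 9499 genes with at least 10 CPM on average, where the median gene lay at 0.556. Nearest to Lonp1 were Chtop, Pex11a and Rpusd4, at 0.0439, 0.0465 and 0.0577, against a median of 0.530. Profiles were not scaled by their spread, so genes that vary little lie near a member that varies little. Shared regulation was not tested. Among the members themselves Clpx and Afg3l2 were each other's nearest neighbour, at 0.171, as were Lonp1 and Oma1, at 0.200. Hspe1 and Clpp were also nearest to each other but at 0.574, and Yme1l1 lay farthest from any other member, at 0.632 from Clpx.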

How the data were processed

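RNA from inguinal white adipose tissue was sequenced as 75-base single-end reads from TruSeq RNA v2 libraries, per the labels' protocols. HISAT2 2.1.0, HTSeq 0.13.5, DESeq2 1.26 and build mm10 are listed in the submitters' processing notes, without annotation or counter settings. The authors deposited unnormalised read counts per gene symbol. Summary lines of the counter entered neither library sizes nor tests. Reads assigned to no feature were 8.85% to 14.7% of reads counted in genes, in none or as ambiguous, and ambiguous reads 1.63% to 1.83%. The other summary lines were not used here. Replicate pairs varied 3.27 to 23.1 times as much as sampling noise. That ratio used library totals alone, without the scaling described below, so differences in scale between libraries are part of it. Each library counts once.

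The counts were then tested with edgeR 4.0.16 (R 4.3.3). It used filterByExpr, which left 14065 genes, trimmed-mean-of-M-values scaling, a robust quasi-likelihood F test of Mpst KO HFD against WT HFD over all 6 libraries without covariates, and Benjamini-Hochberg adjustment over all tested genes, called under 0.05. Each SE was obtained from the log2 fold change and its F statistic. Partner ratios had exact permutation tests. The test was also run on simulated data. Alternatives were other scalings, DESeq2 1.42.0, limma-voom (limma 3.58.1), other filters, no robust estimation, the replicate number as a block, thinning, each library left out, removal of the 2 libraries highest in muscle transcripts, and removal of each library's spline trend on GC content and exon length.

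Positions, lengths, GC content and shared 75-base stretches came from GENCODE release M21 (GRCm38, the assembly of mm10), matched by symbol for 13905 tested genes. The members and lists were chosen with earlier results of these data known. Named genes are the members, Mpst, up to 4 called genes of each list by smallest p or the 1 with the smallest p, and the 3 nearest profiles to Hspd1 and Lonp1. Outside that rule, Hspa9, Nln, Opa1, Gdf15, Aup1, Loxl3 and some cell type markers were named after their values were seen. The called respiratory chain subunits are only counted.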

Additional observations from a re-analysis of the deposited data

How the results depend on the processing

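Over 17 alternative settings, 152 of the 170 member fits kept the direction and the side of the threshold. Members other than Clpp and Yme1l1 had adjusted p-values of 0.145 to 0.990 in the comparison given, so that count mostly reflects fits that stayed uncalled. Clpp lost its call in 6 of the 17 and Yme1l1 gained one in 4. The count of members called higher, 0 in the comparison given, was 1 by DESeq2 and with the replicate block, both Yme1l1, and was 0 to 1 when single libraries were left out. The count called lower, 1, was 0 with the GC and length trend taken out and without the 2 libraries highest in muscle transcripts, and was 0 to 1 when single libraries were left out. Small values near 0 changed sign. Hspd1 was −0.0101 with RLE size factors, −0.0107 by DESeq2 and −0.0305 when libraries were thinned, and −0.0512 to 0.0727 with each library left out. Afg3l2 was −0.0318 with the GC and length trend taken out and −0.0286 to 0.144 with each library left out, and Htra2 was −0.0623 to 0.373. Over all genes, 669 were higher and 373 lower. DESeq2 gave 1074 and 894, the replicate block 1387 and 1289, and the fit without the 2 libraries highest in muscle transcripts 0 and 1. Leaving out single libraries gave 0 to 1434 higher and 1 to 1167 lower. These were 41 and 5 without knockout replicate 1, 1 and 1 without knockout replicate 2, 1 and 2 without knockout replicate 3, 0 and 1 without wild-type replicate 2, and 1434 and 1167 without wild-type replicate 3. The share of higher calls was 64.2%, 54.6% by DESeq2 and 51.8% with the replicate block. The GC and length trend gave 453 higher calls and 254 lower. Same-numbered libraries had deviations from their group means that correlated at 0.171, −0.0994 and 0.303. Knockout replicates 1 and 3 correlated best with the wild-type library of the same number, and knockout replicate 2 with wild-type replicate 1 (0.357). These correlations do not settle whether libraries were paired by number. The cause of these shifts was not tested, and the fits without 1 library have fewer samples. Depth limits Oma1 and Htra2 most, in knockout replicate 1 at 116 and 203 reads.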
